A study of Mus musculus with 12 samples.

Results

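The transcripts described here are those of the 7 mammalian sirtuins, *Sirt1* to *Sirt7*, taken by family name from a table of 16234 genes in bone marrow-derived mast cells (BMMCs). All 7 were in the table and all 7 passed the filter on low counts, among 12208 genes tested. Their NCBI Gene identifiers in the table were 93759 (*Sirt1*), 64383 (*Sirt2*), 64384 (*Sirt3*), 75387 (*Sirt4*), 68346 (*Sirt5*), 50721 (*Sirt6*) and 209011 (*Sirt7*). The cells were grown from the marrow of C57BL/6N littermates, 6 to 12 weeks old and of both sexes, from a line in which *Elk4* is deleted in all tissues, and were cultured with IL-3 and SCF. Each library's label for *Elk4*, an ETS-family transcription factor of the ternary complex group, was WT (wild type), HZ (heterozygous) or KO (knockout). Unstimulated cells of each label were set against cells sensitized overnight with 0.5 µg/ml anti-DNP IgE and then given 100 ng/ml DNP-HSA for 1 h, which crosslinks the high-affinity IgE receptor FcϵRI. There were 6 groups of 2 libraries, 12 in all, and the labels do not say whether the 2 libraries of a group came from separate animals or cultures, nor which sex they were. P-values therefore measure the spread between these libraries.

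Library totals on genes ran from 29697958 to 35531667 counts. *Elk4* itself did not order the libraries by label. Its normalized level in unstimulated cells was 75.8 ± 3.60 CPM (counts scaled to one library size; SD, n = 2) under WT, 89.6 ± 5.10 under HZ and 66.6 ± 4.37 under KO, and in stimulated cells 72.6 ± 7.91, 64.4 ± 1.05 and 67.8 ± 0.978 CPM. Against WT its log2 fold change in unstimulated cells was -0.19 (adjusted p = 0.00872) for KO and 0.24 (adjusted p = 4.84e-04) for HZ in edgeR. Which part of *Elk4* the allele removes was not given in the sources used here, so a gene count that includes the rest of the transcript cannot check the label, and WT, HZ and KO below are the libraries so labelled. The paper reports that a western blot of its WT, HZ and KO BMMCs showed the *Elk4* deletion. Whether the blotted cultures were those sequenced was not given in the sources used here. Of the 10 mast cell markers, *Kit* (4149.7 to 4978 CPM) and *Fcer1a* (3909 to 4868 CPM) were among those abundant in every library. Others were lower, with *Mcpt4* at 18.1 to 52.8, *Mitf* at 130 to 156 and *Hdc* at 16.9 to 1115.7 CPM. The 10 macrophage and monocyte markers summed to 29.4 to 64.7 CPM, most of it *Cd68* (20.3 to 56.6 CPM), with *Csf1r* at 0 to 0.774. The 5 basophil markers summed to 565 to 779.7 CPM, most of it *Cd200r3* (454 to 667 CPM) and *Cd200r1* (91.5 to 144 CPM). The other basophil markers were low, with *Mcpt8* at 4.68 to 11.048, *Prss34* at 0.366 to 1.61 and *Itga2* at 0 to 0.457 CPM. Neutrophil markers summed to 0 to 0.269 CPM and eosinophil markers to 0.915 to 4.97. Lymphocyte markers summed to 0.121 to 0.705 CPM and dendritic cell markers to 0.791 to 7.60. Marker sums moved with the groups. The 10 mast cell markers summed to 46575 to 47639 CPM in unstimulated WT, 55807 to 57243 in HZ and 50766 to 51788 in KO, and to 51355 to 51539, 48907 to 49658 and 50424 to 50945 CPM in the stimulated groups. The 12 proliferation markers summed to 1778 to 1786 CPM in unstimulated WT, 718 to 719.7 in unstimulated HZ and 956 to 962 in unstimulated KO, and to 1828 to 1839.8, 1713 to 1729 and 1066 to 1079.7 CPM in the stimulated groups. The genotype differences below run beside these shifts, whose part in them was not tested. In bulk RNA, fewer cells of one kind and less RNA per cell cannot be told apart.

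Sirtuins are enzymes that use NAD+ to remove acetyl and longer acyl groups from lysines. SIRT1, SIRT6 and SIRT7 are mainly nuclear, SIRT2 is mainly cytosolic, and SIRT3, SIRT4 and SIRT5 work in mitochondria. SIRT6 deacetylates histone H3 and is known as a repressor of glycolytic genes, and SIRT7 acts at RNA polymerase I genes and deacetylates histone H3 at a single lysine. The study took up SIRT6 as a protein partner of ELK4 in mast cells, which makes the level of the sirtuin transcripts themselves, across label and stimulation, the question here.

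RefSeq promoter windows on GRCm38.p6, 250 bases before to 50 after a transcript start, were found for all 7 genes, 9 windows in all because *Sirt3* and *Sirt6* each had 2. Both strands were searched for CCGGAA, the core that ETS factors such as ELK4 read, for CCGGAAGT, which contains it, and for CACGTG, an E-box that contains neither and is contained in neither. CCGGAA was in windows of 4 of the 7 genes (*Sirt3*, *Sirt4*, *Sirt6* and *Sirt7*), against 16.7% of the 27025 genes with a window, and in 4 of the 9 windows, against 14.9% of all 32851 windows. CCGGAAGT was in windows of 2 genes (*Sirt3* and *Sirt6*), against 4.31% of genes and 3.89% of windows. CACGTG was found only in the *Sirt1* window, at 2 places, against 8.09% of genes and 7.15% of windows. A match is a run of letters and not a bound site. The 4 windows below belong to the gene whose transcript differed by KO label in both states (*Sirt1*), to the one that differed in stimulated cells (*Sirt3*), and to the nuclear pair *Sirt6* and *Sirt7* that passed in neither. All are on the minus strand of the genome, printed from 5′ to 3′ of the gene, with the matches in capitals. For *Sirt3* and *Sirt6*, which had 2 windows each, only the window that held a match is printed. The distances given for them are from the start of that window's transcript.
*Sirt1*, chr10:63338986-63339285: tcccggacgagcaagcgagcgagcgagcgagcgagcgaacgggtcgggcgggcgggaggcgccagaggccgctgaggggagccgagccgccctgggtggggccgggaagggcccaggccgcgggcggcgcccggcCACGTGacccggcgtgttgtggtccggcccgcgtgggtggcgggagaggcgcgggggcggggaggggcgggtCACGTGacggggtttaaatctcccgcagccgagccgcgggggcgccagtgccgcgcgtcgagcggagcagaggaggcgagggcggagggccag
*Sirt3*, chr7:140882260-140882559: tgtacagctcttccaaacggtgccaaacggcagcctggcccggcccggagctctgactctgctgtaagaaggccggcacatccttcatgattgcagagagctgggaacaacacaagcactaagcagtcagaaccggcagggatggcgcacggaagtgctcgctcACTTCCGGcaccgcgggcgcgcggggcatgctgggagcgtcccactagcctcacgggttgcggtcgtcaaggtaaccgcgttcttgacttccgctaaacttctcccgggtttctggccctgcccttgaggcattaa
*Sirt6*, chr10:81627517-81627816: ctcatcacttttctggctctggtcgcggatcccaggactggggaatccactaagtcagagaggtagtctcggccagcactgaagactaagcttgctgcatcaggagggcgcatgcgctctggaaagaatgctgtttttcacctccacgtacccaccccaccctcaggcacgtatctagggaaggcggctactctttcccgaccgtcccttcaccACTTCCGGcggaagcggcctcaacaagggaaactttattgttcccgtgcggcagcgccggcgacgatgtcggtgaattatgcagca
*Sirt7*, chr11:120624965-120625264: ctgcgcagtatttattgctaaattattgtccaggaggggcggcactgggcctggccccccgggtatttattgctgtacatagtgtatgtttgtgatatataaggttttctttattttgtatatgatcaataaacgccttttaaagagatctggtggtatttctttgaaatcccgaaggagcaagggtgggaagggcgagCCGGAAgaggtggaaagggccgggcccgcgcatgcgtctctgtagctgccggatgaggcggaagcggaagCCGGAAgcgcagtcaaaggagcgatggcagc
In these windows the E-box letters of *Sirt1* began 115 and 43 bases before the start, the CCGGAA letters of *Sirt3* 84 bases before it and those of *Sirt6* 34 bases before it, read from the gene's 5′ side. The pair of CCGGAA matches in *Sirt7* began 51 bases before and 20 bases after the start.

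*Sirt2*, *Sirt7* and *Sirt3* carried most of the family's RNA. Per length, as FPKM from the deposited table, *Sirt2* was the highest sirtuin in each of the 6 groups, followed by *Sirt7*, *Sirt3*, *Sirt1*, *Sirt6*, *Sirt5* and *Sirt4*. In unstimulated WT cells the levels were 48.6 ± 1.37 FPKM (SD, n = 2) for *Sirt2*, 42.6 ± 3.13 for *Sirt7* and 31.0 ± 2.41 for *Sirt3*. The other 4 were much lower, at 7.12 ± 0.563 FPKM for *Sirt1*, 6.55 ± 0.665 for *Sirt6*, 3.54 ± 0.415 for *Sirt5* and 2.82 ± 0.106 for *Sirt4*. *Sirt2*, *Sirt3* and *Sirt7* together made up 84.9% to 88.1% of the family's FPKM in every library. Within a group of 2 libraries, neighbours in this order overlapped in 1 case, *Sirt1* and *Sirt6* in unstimulated WT. Over the 6 unstimulated libraries, as over the 6 stimulated ones, the ranges of *Sirt1* and *Sirt6* overlapped and those of the other neighbours did not. The summed FPKM of the family was 142 ± 2.42 in unstimulated WT, 155 ± 1.61 in HZ and 143 ± 2.68 in KO. After stimulation it was 108 ± 0.0915, 103 ± 1.13 and 114 ± 0.480 FPKM. FPKM is scaled by library totals. On that scale the median log2 fold change of all genes on stimulation was -0.32 in WT, -0.24 in HZ and -0.30 in KO.

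**Figure D1:**
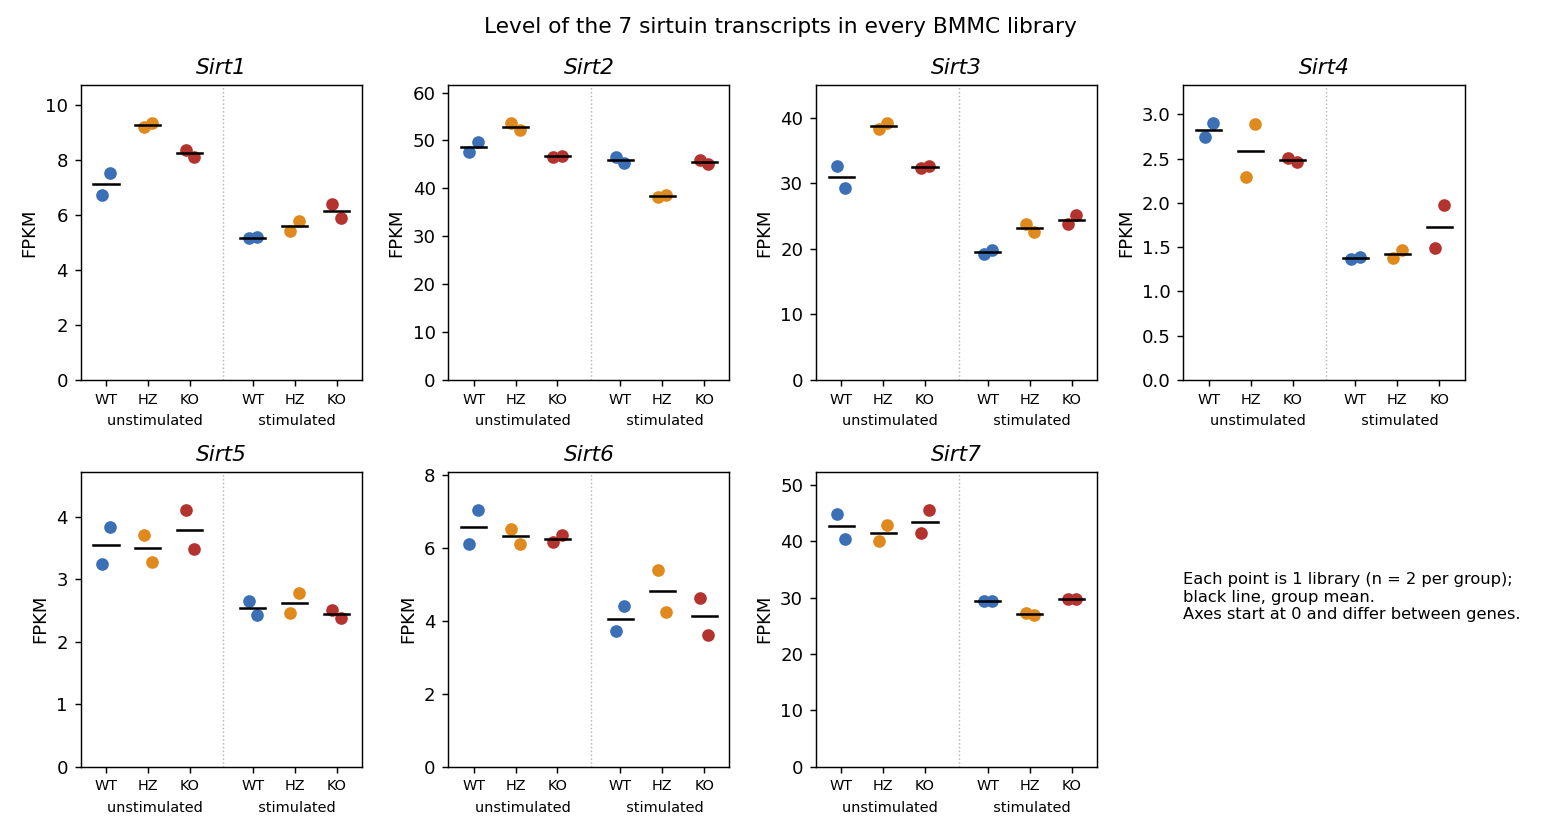
FPKM (y axis, starting at 0, a separate scale for each gene) of the 7 sirtuin transcripts in the 12 libraries, by Elk4 label and state on the x axis. Each point is 1 library and each black line a mean of 2. Sirt2 reaches 53.6 FPKM and Sirt4 no more than 2.90 FPKM. Every stimulated library of Sirt1, Sirt3, Sirt4, Sirt5, Sirt6 and Sirt7 lies below every unstimulated library of the same gene on this scale. FPKM is scaled by library totals, on which the median of all genes also fell on stimulation. In normalized CPM the ranges of the states overlapped for Sirt1, Sirt3, Sirt4, Sirt5 and Sirt6.

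The first comparison sets WT cells given overnight IgE and then 1 h of DNP-HSA, called stimulated here, against unstimulated WT cells. The labels name no IgE for the unstimulated libraries, and no group had IgE alone. The parts of IgE and of antigen in any stimulation change, under each label, therefore cannot be told apart. Of the 7, 4 fell and 1 rose at an adjusted p below 0.05 (edgeR quasi-likelihood test, Benjamini-Hochberg over all genes tested), where 45.3% of all genes tested passed (22.4% higher and 22.9% lower). None reached the 2-fold change that the study used as its threshold, which 6.77% of all genes did. The median log2 fold change was -0.23 over the sirtuins and -0.01 over all genes. *Sirt4* fell most, to 0.605 of its unstimulated level, and *Sirt2* rose to 1.17 of it with the scaling used here, though not on library totals.

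These values rest on trimmed-mean (TMM) factors, and their sign depends on that choice for 1 member. The factors ran from 1.08 to 1.12 before stimulation and from 0.902 to 0.924 after it. Scaling by library totals, as in the deposited FPKM, moved the median log2 fold change of all genes on stimulation to -0.32 in WT, -0.24 in HZ and -0.30 in KO, so stimulation changes are given relative to the other genes. On library totals all 7 sirtuins had negative log2 fold changes in all 3 labels. *Sirt2* read -0.08 (adjusted p = 0.0793) in WT and -0.04 (adjusted p = 0.423) in KO on that scale, above the median of all genes. In the 3 limma fits on the deposited FPKM the WT value passed as a fall (adjusted p = 0.0438, 0.0435 and 0.0289). The rise of *Sirt2* is thus a rise against the other transcripts of the library and not in its share of all counts. The calls moved as well. On library totals they were 6 lower and 0 higher in WT, 7 lower and 0 higher in HZ and 6 lower and 0 higher in KO. The share of all genes called lower on that scale was not computed, and the median of all genes fell on it too. Members that passed on totals and not with TMM factors were *Sirt1* and *Sirt5* in WT, *Sirt5* and *Sirt6* in HZ, and *Sirt1*, *Sirt3* and *Sirt4* in KO.

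**Figure D2:**
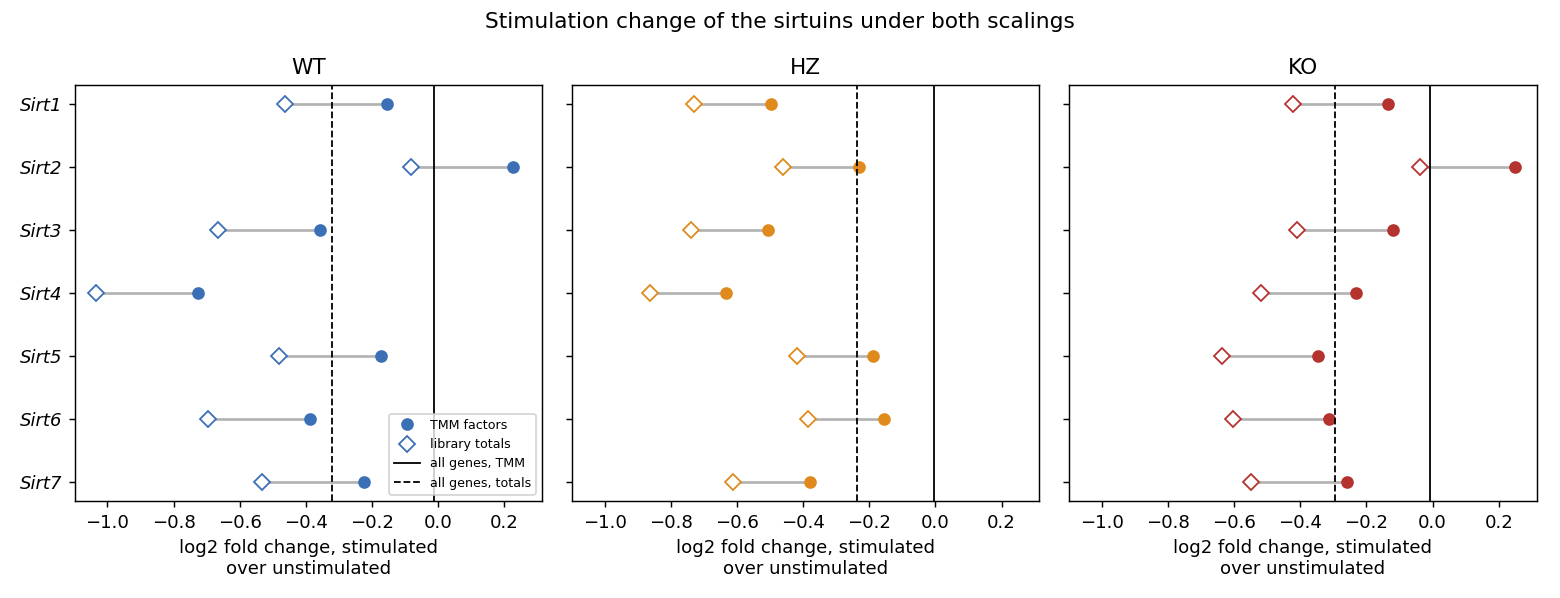
Log2 fold change on stimulation (x axis) of each sirtuin (y axis) in WT, HZ and KO, with TMM factors (filled circles) and with library totals (open diamonds). The solid and dashed vertical lines are the medians of all genes under the same 2 scalings, -0.01 and -0.32 in WT. Both kinds of points shift together with the lines, and Sirt2 in WT and KO lies to the right of the line of its own scaling.

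Among the nuclear sirtuins, *Sirt7*, the member linked to ribosomal RNA genes, fell in all 3 labels. Unstimulated *Sirt7* read 75.1 and 67.3 (WT), 69.0 and 74.1 (HZ) and 70.2 and 77.3 (KO) CPM. Stimulated *Sirt7* read 60.9 and 60.9 (WT), 55.3 and 54.8 (HZ) and 61.7 and 61.6 (KO) CPM. All 6 stimulated libraries lay below all 6 unstimulated ones. The log2 fold changes were -0.23 (SE 0.0586, adjusted p = 0.00135) in WT, -0.38 (SE 0.0589, adjusted p = 2.51e-07) in HZ and -0.26 (SE 0.0584, adjusted p = 2.87e-04) in KO. Without the first unstimulated WT library the WT value was -0.14 with an adjusted p of 0.0997.

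*Sirt6*, the chromatin deacetylase, had fewer counts, between 283 and 537 per library. Its unstimulated levels were 13.4 and 15.3 (WT), 14.7 and 13.9 (HZ) and 13.7 and 14.1 (KO) CPM, and its stimulated levels 10.1 and 11.9 (WT), 14.3 and 11.3 (HZ) and 12.5 and 9.83 (KO) CPM. Stimulated values were lower in WT and KO without overlap, whereas 1 of the HZ libraries stayed among the unstimulated ones. *Sirt6* fell in WT, with a log2 fold change of -0.39 (SE 0.130, adjusted p = 0.0127), and in KO, with -0.31 (SE 0.130, adjusted p = 0.0483). In HZ it read -0.15 (SE 0.127, adjusted p = 0.293), with a 95% interval of -0.41 to 0.10, and passed on library totals, at -0.39 (adjusted p = 0.00714). These calls rested on single libraries. The WT call was lost without the first stimulated library (adjusted p = 0.186) or the second unstimulated one (adjusted p = 0.188). The KO call was lost without the second stimulated library (adjusted p = 0.510), without either unstimulated one (adjusted p = 0.0975 and 0.160), and in DESeq2 (adjusted p = 0.104).

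*Sirt1*, which deacetylates p53, FOXO proteins and NF-κB, passed the test of stimulation with TMM factors in HZ and not in WT or KO. It read 23.6 and 26.2 (WT), 33.3 and 33.8 (HZ) and 29.7 and 28.8 (KO) CPM in unstimulated cells and 22.3 and 22.5 (WT), 23.0 and 24.6 (HZ) and 27.8 and 25.5 (KO) CPM in stimulated cells. The log2 fold change was -0.50 (SE 0.0825, adjusted p = 9.11e-07) in HZ, against -0.15 (SE 0.0851, adjusted p = 0.142) in WT and -0.13 (SE 0.0827, adjusted p = 0.203) in KO. The unstimulated HZ libraries were the highest of the 12, and stimulation left *Sirt1* in HZ among the other stimulated libraries. On library totals *Sirt1* passed in all 3 labels, at -0.46 (adjusted p = 6.69e-06) in WT, -0.73 (adjusted p = 1.15e-10) in HZ and -0.42 (adjusted p = 1.89e-05) in KO.

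*Sirt2*, the main cytosolic member and a tubulin deacetylase, moved in opposite directions by label with TMM factors, whereas on library totals all 3 values were negative. It read 115 and 119 (WT), 133 and 129.8 (HZ) and 113 and 114 (KO) CPM before and 138 and 135 (WT), 111 and 113 (HZ) and 136 and 134 (KO) CPM after stimulation. With TMM factors, and not on library totals, WT and KO rose, by log2 fold changes of 0.23 (SE 0.0415, adjusted p = 1.16e-05) and 0.25 (SE 0.0416, adjusted p = 2.25e-06), and HZ fell, at -0.23 (SE 0.0416, adjusted p = 4.61e-06). The unstimulated and stimulated libraries did not overlap within any label.

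In mitochondria, SIRT3 is the main deacetylase, SIRT4 an ADP-ribosyltransferase and deacylase that acts on glutamate dehydrogenase, and SIRT5 a desuccinylase and demalonylase. *Sirt3* read 46.1 and 41.1 (WT), 55.6 and 57.1 (HZ) and 46.1 and 46.7 (KO) CPM in unstimulated cells and 33.5 and 34.5 (WT), 40.6 and 38.7 (HZ) and 41.5 and 43.8 (KO) CPM in stimulated cells. It fell in WT, with a log2 fold change of -0.36 (SE 0.0683, adjusted p = 2.19e-05), and in HZ, with -0.51 (SE 0.0659, adjusted p = 4.42e-09), with no overlap of libraries. In KO the change was -0.12 (SE 0.0665, adjusted p = 0.151), or -0.41 (adjusted p = 7.05e-07) on library totals. *Sirt4*, at 123 to 248 counts the least abundant member, read 6.76 and 7.09 (WT), 5.82 and 7.34 (HZ) and 6.24 and 6.14 (KO) CPM before and 4.14 and 4.23 (WT), 4.08 and 4.40 (HZ) and 4.53 and 6.01 (KO) CPM after stimulation. It had the lowest values of the family on the log2 scale in WT and HZ, -0.73 (SE 0.184, adjusted p = 0.00103) and -0.63 (SE 0.184, adjusted p = 0.00251), and read -0.23 (SE 0.181, adjusted p = 0.330) in KO, where 1 stimulated library reached 6.01 CPM and the value on library totals passed, at -0.52 (adjusted p = 0.0105). The HZ call was lost without the second unstimulated library (adjusted p = 0.0776). *Sirt5* read 10.1 and 11.8 (WT), 11.9 and 10.5 (HZ) and 12.9 and 10.9 (KO) CPM before and 10.1 and 9.30 (WT), 9.20 and 10.5 (HZ) and 9.63 and 9.10 (KO) CPM after stimulation. With TMM factors only its KO change passed, at -0.35 (SE 0.135, adjusted p = 0.0354), against -0.17 (SE 0.135, adjusted p = 0.312) in WT and -0.19 (SE 0.134, adjusted p = 0.223) in HZ. On library totals *Sirt5* passed in WT, at -0.48 (adjusted p = 0.00173), and in HZ, at -0.42 (adjusted p = 0.00554), too. The KO call was lost without either stimulated KO library or the first unstimulated one (adjusted p of 0.0717, 0.165 and 0.331) and in DESeq2 (adjusted p = 0.0671).

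**Figure D3:**
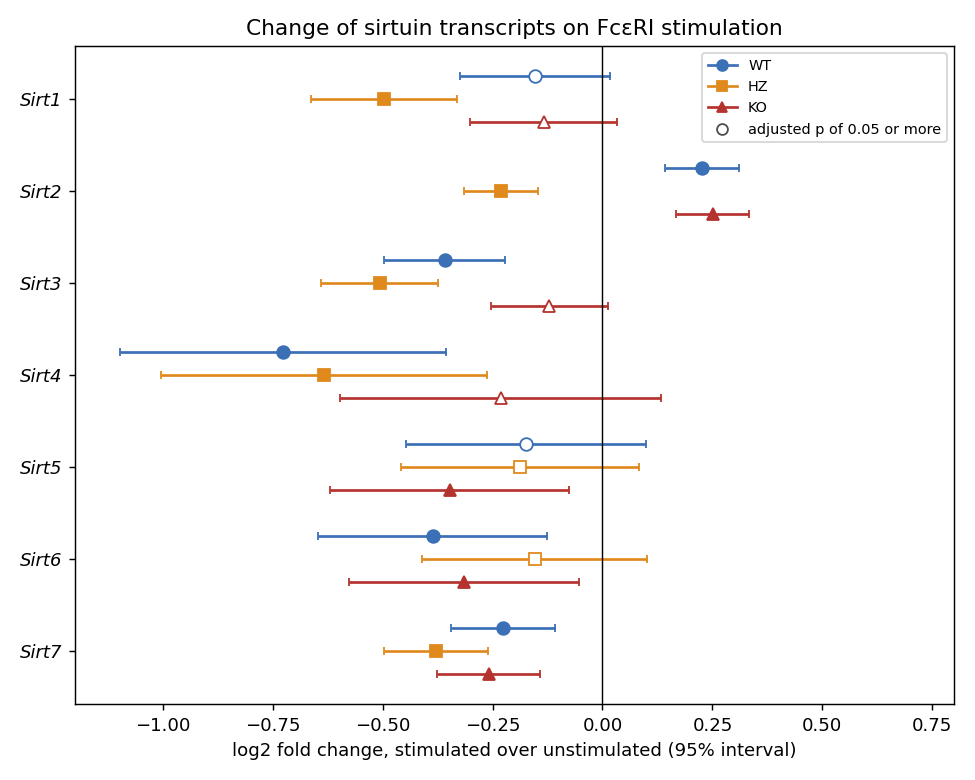
Log2 fold change on stimulation (x axis, TMM-scaled) of the 7 sirtuins (y axis) in WT (circles), HZ (squares) and KO (triangles), with 95% intervals. Open symbols had an adjusted p of 0.05 or more. Sirt7 is negative and filled under all 3 labels, Sirt2 is positive in WT and KO (negative on library totals) and negative in HZ, and Sirt4 has the widest intervals.

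Counted by label, 5 sirtuins fell and 0 rose in HZ, where 64.4% of all genes tested passed (31.6% lower). In KO, 3 fell and 1 rose, where 40.8% of all genes tested passed (20.4% higher and 20.5% lower). The medians over the family were -0.38 in HZ and -0.23 in KO, and those over all genes -0.00483 and -0.01. The mast cell markers gave 1 of 10 higher and 9 lower, median -0.22, on stimulation in HZ, and their part in the HZ changes was not tested. No member reached 2-fold in either label, against 14.3% of all genes in HZ and 6.61% in KO. Whether the response itself differed by label was tested as an interaction. Between KO and WT, 0 of 7 passed in edgeR, 1 had an unadjusted p below 0.05, and 9.27% of all genes tested passed, 0.704% by 2-fold. That member was *Sirt3*, with a difference in log2 fold change of 0.24 (SE 0.0954, adjusted p = 0.119). Between HZ and WT, 2 of 7 passed, both lower in HZ and neither by 2-fold, where 38.5% of all genes tested passed (18.6% lower), 5.99% by 2-fold. They were *Sirt2*, at -0.46 (SE 0.0588, adjusted p = 1.05e-08), and *Sirt1*, at -0.34 (SE 0.119, adjusted p = 0.0178). The mast cell markers moved the same way in this comparison (0 of 10 higher and 9 lower, median -0.31), and their part was not tested. The difference in *Sirt1* was lost without the first stimulated HZ library (adjusted p = 0.0855) or the first unstimulated WT library (adjusted p = 0.113), and on library totals (adjusted p = 0.0686).

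The second comparison asks which sirtuins differ with the *Elk4* label in unstimulated cells. Between KO and WT, 1 of 7 passed, upwards, where 44.6% of all genes tested passed (22.9% higher and 21.7% lower). It was *Sirt1*, higher by a log2 fold change of 0.23 (SE 0.0818, adjusted p = 0.0180), or 1.17-fold. Both KO libraries (29.7 and 28.8 CPM) lay above both WT libraries (23.6 and 26.2 CPM). The call was lost without the first KO library (adjusted p = 0.0997) or the first WT library (adjusted p = 0.219). The log2 fold change of *Sirt6* was -0.05 (SE 0.125, adjusted p = 0.790), with a 95% interval of -0.30 to 0.20. For *Sirt7* it was 0.05 (SE 0.0570, adjusted p = 0.495), with an interval of -0.06 to 0.17.

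Between HZ and WT in unstimulated cells, 3 of 7 passed, each upwards, where 51.4% of all genes tested passed (25.4% higher). *Sirt1* was higher by 0.43 (SE 0.0815, adjusted p = 1.57e-05), *Sirt3* by 0.37 (SE 0.0649, adjusted p = 4.12e-06) and *Sirt2* by 0.17 (SE 0.0413, adjusted p = 4.85e-04) on the log2 scale. The mast cell markers ran the same way (7 of 10 higher and 1 lower, median 0.21), as they did in KO against HZ (0 of 10 higher and 7 lower, median -0.18), and their part was not tested. KO set directly against HZ gave the same 3 members in the other direction, where 45.2% of all genes tested passed (21.8% lower). No sirtuin reached 2-fold in the unstimulated comparisons, against 7.51% of all genes for KO and WT, 9.15% for HZ and WT and 3.36% for KO and HZ. *Sirt3* was lower in KO, at -0.28 (SE 0.0643, adjusted p = 3.11e-04), as were *Sirt2*, at -0.21 (SE 0.0412, adjusted p = 4.15e-05), and *Sirt1*, at -0.20 (SE 0.0800, adjusted p = 0.0390). The last call was lost whichever of the 4 libraries was left out, with adjusted p from 0.0881 to 0.173, and on library totals (adjusted p = 0.0774). These comparisons share libraries, so the values are set side by side and not counted as separate evidence. In these unstimulated groups the KO level of *Sirt1* therefore lay between WT and HZ.

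In stimulated cells, KO was above WT in 2 of 7 members, where 40.4% of all genes tested passed (21.2% higher and 19.2% lower). *Sirt3* was higher by a log2 fold change of 0.33 (SE 0.0694, adjusted p = 1.25e-04), with KO libraries at 41.5 and 43.8 CPM and WT libraries at 33.5 and 34.5. This call held whichever of the 4 libraries was left out. *Sirt1* was higher by 0.25 (SE 0.0859, adjusted p = 0.0163), a call that was lost without the first KO library (adjusted p = 0.172) or either WT library (adjusted p = 0.0764 and 0.0569). *Sirt1* thus stood above WT in the KO libraries of both states. Neither of the other nuclear members passed. *Sirt6* read 0.02 (SE 0.135, adjusted p = 0.911), interval -0.25 to 0.30, and *Sirt7* 0.02 (SE 0.0601, adjusted p = 0.848), interval -0.10 to 0.14. *Sirt4* had a larger estimate, 0.33 (SE 0.192, adjusted p = 0.169), with an interval from -0.05 to 0.72. No member reached the 1.5-fold change the study used between stimulated genotypes, in this or the 2 comparisons that follow, against 12.8% of all genes here, 8.01% for HZ and WT and 5.41% for KO and HZ.

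HZ against WT in stimulated cells gave 1 member higher and 1 lower, where 34.9% of all genes tested passed (18.4% higher and 16.5% lower). *Sirt2* was lower in HZ, at -0.29 (SE 0.0419, adjusted p = 2.57e-07), the reverse of its sign in unstimulated cells, and this held whichever of the 4 libraries was left out. *Sirt3* was higher, at 0.22 (SE 0.0693, adjusted p = 0.00979), but not without the first HZ library (adjusted p = 0.100) or the first WT library (adjusted p = 0.0813). *Sirt7* did not pass in HZ against WT, at -0.15 (SE 0.0602, adjusted p = 0.0541), though its libraries did not overlap and it passed in DESeq2 (adjusted p = 0.0447). KO against HZ passed in 2 members, both higher in KO, where 24.9% of all genes tested passed (12.9% higher). *Sirt2* was higher in KO by 0.27 (SE 0.0420, adjusted p = 1.12e-06) and *Sirt7* by 0.16 (SE 0.0603, adjusted p = 0.0400). The *Sirt7* call was lost whichever of the 4 libraries was left out, with adjusted p from 0.118 to 0.154, and in DESeq2 (adjusted p = 0.0506). The stimulated HZ libraries were the lowest of the 12 for *Sirt2* (111 and 113 CPM) and for *Sirt7* (55.3 and 54.8 CPM).

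**Figure D4:**
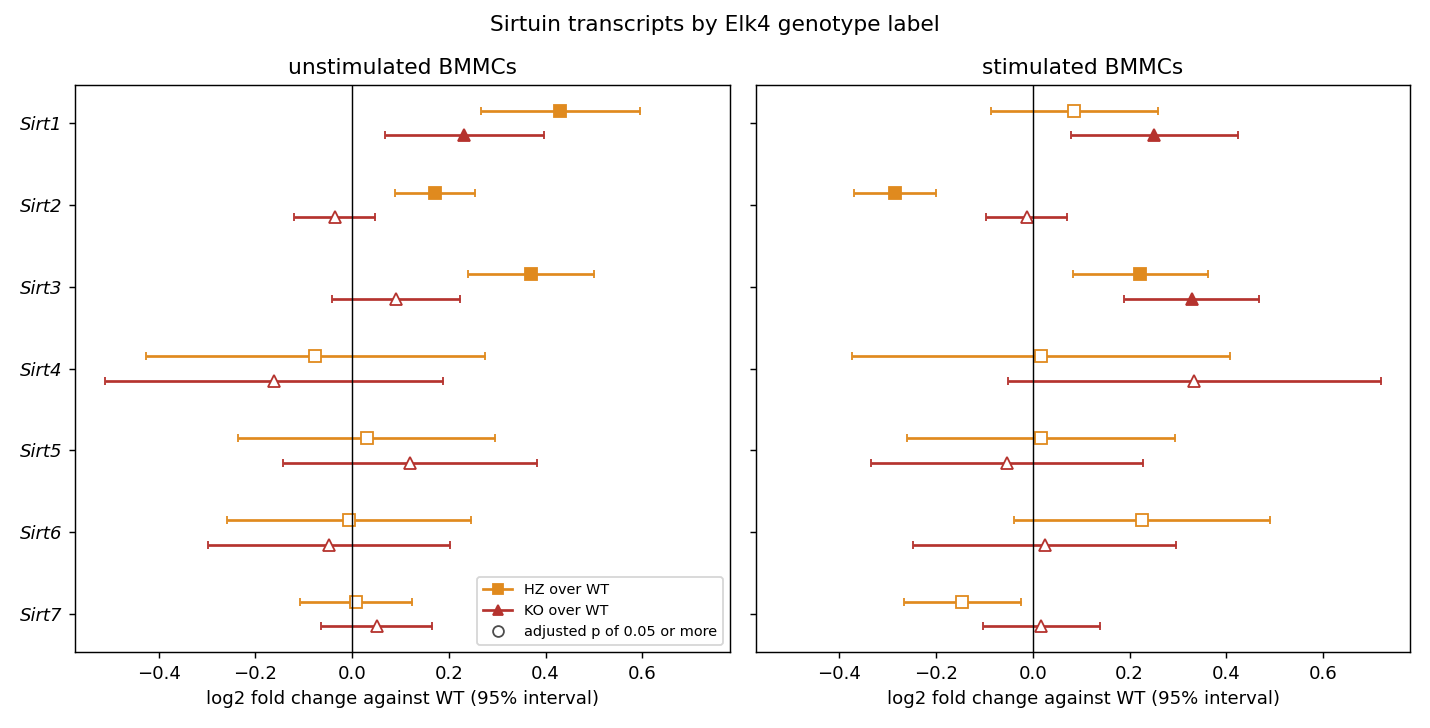
Log2 fold change against WT (x axis) of the 7 sirtuins (y axis) for HZ (squares) and KO (triangles), in unstimulated cells on the left and stimulated cells on the right, with 95% intervals. Open symbols had an adjusted p of 0.05 or more. Sirt1 is filled for KO on both sides, at 0.23 and 0.25, and Sirt6 and Sirt7 are open in every comparison shown.

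Reads of 4 members (*Sirt1*, *Sirt2*, *Sirt3* and *Sirt7*) can overlap with those of other genes. In a GRCm38 annotation (GENCODE M21), not the GRCm39 build named for these files, *Sirt3* shares exon bases with *Ric8a* (418) and *Psmd13* (342) on the other strand, *Sirt2* with *Nfkbib* (42) on the other strand, *Sirt1* with an antisense transcript (65), and *Sirt7* with *Mafg* (124) and a microRNA gene (54) on the same strand. Whether counting used strand was not given in the sources used here, so such reads cannot be told apart. *Ric8a*, a chaperone of G protein alpha subunits, moved as *Sirt3* did in HZ, by -0.51 (adjusted p = 1.31e-17) on stimulation and 0.33 (adjusted p = 2.74e-11) in unstimulated HZ against WT. It did not follow *Sirt3* on stimulation in WT, at -0.04 (adjusted p = 0.324), and in stimulated HZ against WT it was lower, at -0.14 (adjusted p = 0.00145). *Mafg*, a small MAF factor, rose on stimulation in WT by 0.35 (adjusted p = 3.27e-11), opposite to *Sirt7*, and was higher in stimulated KO than HZ by 0.27 (adjusted p = 3.94e-08), as *Sirt7* was. *Nfkbib*, an inhibitor of NF-κB, rose in WT by 0.62 (adjusted p = 1.28e-08) and also in HZ by 0.45 (adjusted p = 5.28e-06), where *Sirt2* fell. *Psmd13* read 0.03 (adjusted p = 0.592) in WT on stimulation and was higher in stimulated KO by 0.17 (adjusted p = 0.00310), as *Sirt3* was, and *Ric8a* read 0.13 (adjusted p = 0.00222) there. The part of these overlaps in the sirtuin values was not tested. *Sirt4*, *Sirt5* and *Sirt6* overlap no other gene in that annotation.

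The genes around the sirtuins were read from hand-written lists, beginning with the supply of NAD+. Over all genes tested, the shares that passed were 22.4% higher and 22.9% lower on stimulation in WT, 20.4% higher and 20.5% lower on stimulation in KO, 22.9% higher and 21.7% lower in unstimulated KO against WT and 21.2% higher and 19.2% lower in stimulated KO against WT, and each list count below is to be read against these. Of the NAD synthesis genes tested, 2 of 12 rose and 5 fell on stimulation in WT (median log2 fold change -0.27), and 1 of 12 rose and 1 fell in KO (median -0.04), against the medians of all genes given above. *Nmrk1*, the nicotinamide riboside kinase, rose in both, by 0.94 and 1.23, and *Slc25a51*, the mitochondrial NAD+ carrier, fell in both, at -0.56 and -0.68. *Afmid*, of the kynurenine route, read -0.72 in WT. Between KO and WT, 4 of 12 were higher and 3 were lower in unstimulated cells and 5 of 12 were higher and 2 were lower in stimulated cells, where 22.9% and 21.2% of all genes were higher. *Nmnat1*, the nuclear enzyme that makes NAD+, showed the list's lowest log2 values in KO, -2.43 (SE 0.126, adjusted p = 1.90e-21) and -2.54 (SE 0.130, adjusted p = 1.14e-21), and also read -2.33 and -2.30 in HZ. *Nampt*, which makes its substrate and is rate-limiting in the salvage of nicotinamide, was higher in KO, by 0.52 (SE 0.0295, adjusted p = 4.55e-20) and 0.64 (SE 0.0300, adjusted p = 5.05e-23). *Nmnat3*, the mitochondrial form, was higher by 0.64 in unstimulated KO and *Nadk2*, the mitochondrial NAD+ kinase, by 0.70 in stimulated KO, and *Qprt* was lower in both states, at -0.56 and -0.49.

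The PARP enzymes and CD38-type glycohydrolases also consume NAD+. The 15 genes tested were PARP and tankyrase genes and *Sarm1*, while the CD38-type genes *Cd38* and *Bst1* did not pass the filter on low counts. On stimulation 0 of 15 rose and 6 fell in WT and 1 of 15 rose and 5 fell in KO. *Parp16* had the lowest log2 values, -0.80 and -0.90, and *Parp2* read -0.28 in WT. Between KO and WT, 1 of 15 was higher and 5 lower in unstimulated and 1 of 15 was higher and 3 lower in stimulated cells. *Parp8* was the higher gene in both, at 0.69 and 1.02, and *Parp4* lower in both, at -0.27 and -0.19. Genes whose products act on sirtuins split in both directions, with 2 of 10 higher and 4 lower on stimulation in WT and 2 of 10 higher and 3 lower in KO. *Mdm2*, a ubiquitin ligase that can act on SIRT6, rose by 2.01 (SE 0.0302, adjusted p = 3.23e-44) in WT and 1.67 (SE 0.0314, adjusted p = 4.47e-40) in KO, and was lower in KO than in WT in both states, at -0.96 and -1.30. *Usp22*, a deubiquitinase, fell in both, at -0.65 and -0.69. *Hic1*, a repressor of *Sirt1* transcription, rose by 1.08 in KO and 0.13 in WT, and was higher in stimulated KO by 0.74, in libraries where *Sirt1* was also higher. *Dyrk3*, a kinase reported to act on SIRT1, fell in WT, at -0.89, and was higher in KO, by 1.16 and 2.13.

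Zinc-dependent deacetylases are the NAD-independent counterparts of the sirtuins. On stimulation 3 of 11 rose and 1 fell in WT and 2 of 11 rose and 0 fell in KO, with *Hdac1* up by 0.41 and 0.37 and *Hdac10* at -0.35 in WT. *Hdac4* was lower in KO than WT, at -0.72 and -0.55, and *Hdac5* higher, by 0.36 and 0.22, in lists of which 1 of 11 was higher and 3 lower in unstimulated and 1 of 11 was higher and 2 lower in stimulated cells. Of the lysine acetyltransferases, which add the mark that sirtuins remove, 2 of 14 rose and 5 fell in WT and 3 of 14 rose and 2 fell in KO on stimulation. *Kat7* and *Kat6a* fell in both, at -0.35 and -0.35 in WT, and *Kat2b* rose, by 0.21. In unstimulated KO against WT, 4 of 14 were higher and 5 lower, with *Crebbp* at -0.45 and *Ep300* at -0.25, and in stimulated cells 3 of 14 were higher and 1 lower, with *Nat10* at 0.40.

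Genes whose proteins SIRT1 deacetylates gave 4 of 13 higher and 2 lower on stimulation in WT and 4 of 13 higher and 2 lower in KO. *Hif1a* rose, by 0.43 and 0.41, and *Foxo3* and *Foxo1* fell, at -0.51 and -0.51 in WT. Between KO and WT they gave 1 of 13 higher and 4 lower in unstimulated and 2 of 13 higher and 3 lower in stimulated cells, with *Foxo3* at -0.26 and -0.23 and *Rela* at 0.15 and 0.15. Genes for substrates of the mitochondrial sirtuins gave 8 of 18 higher and 2 lower on stimulation in WT and 3 of 18 higher and 3 lower in KO. *Sod2*, the mitochondrial superoxide dismutase that SIRT3 deacetylates, rose in WT by 0.27 and was higher in KO, by 0.47 and 0.34. *Mlycd*, the malonyl-CoA decarboxylase that SIRT4 acts on, fell on stimulation in both, at -0.49 and -0.60. In KO against WT the list gave 8 of 18 higher and 2 lower and 7 of 18 higher and 2 lower. A protein's deacetylation leaves no trace in its own transcript count, so these values describe levels and not sirtuin activity.

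Glycolysis genes, a class that SIRT6 is known to repress, were read as a hand-written list of their own. Which of its members SIRT6 represses in these cells was not tested. On stimulation 8 of 14 rose and 1 fell in WT (median 0.19) and 8 of 14 rose and 1 fell in KO (median 0.10), where 22.4% and 20.4% of all genes rose. *Hk2*, the inducible hexokinase, rose by 1.26 (SE 0.0389, adjusted p = 5.61e-31) and 1.39 (SE 0.0388, adjusted p = 8.67e-33), and *Pfkfb3* fell in both, at -0.20 and -0.17. In KO against WT, 7 of 14 were higher and 2 lower in unstimulated (median 0.20) and 9 of 14 were higher and 2 lower in stimulated cells (median 0.13), where 22.9% and 21.2% of all genes were higher and the medians of all genes were 0.0183 and 0.0214. *Aldoc*, an aldolase, was higher by 1.14 (SE 0.106, adjusted p = 8.47e-13) and 1.09 (SE 0.114, adjusted p = 2.98e-11), *Pkm* by 0.51 in unstimulated KO, and the glucose transporter gene *Slc2a1* was lower, at -0.21 and -0.17. *Sirt6* itself did not pass in either of these KO comparisons. The RNA polymerase I list, which holds the machinery SIRT7 acts with, gave 3 of 12 higher and 3 lower in WT and 2 of 12 higher and 3 lower in KO on stimulation. *Polr1d* rose, by 0.73 and 0.29, and *Taf1c* fell, at -0.69 and -0.44. In KO against WT, 6 of 12 were higher and 1 lower in unstimulated and 3 of 12 were higher and 1 lower in stimulated cells. Mitochondrial biogenesis genes gave 1 of 12 higher and 4 lower in WT and 2 of 12 higher and 4 lower in KO on stimulation, and *Polg*, the mitochondrial DNA polymerase, was higher in KO by 0.95 and 1.08.

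**Figure D5:**
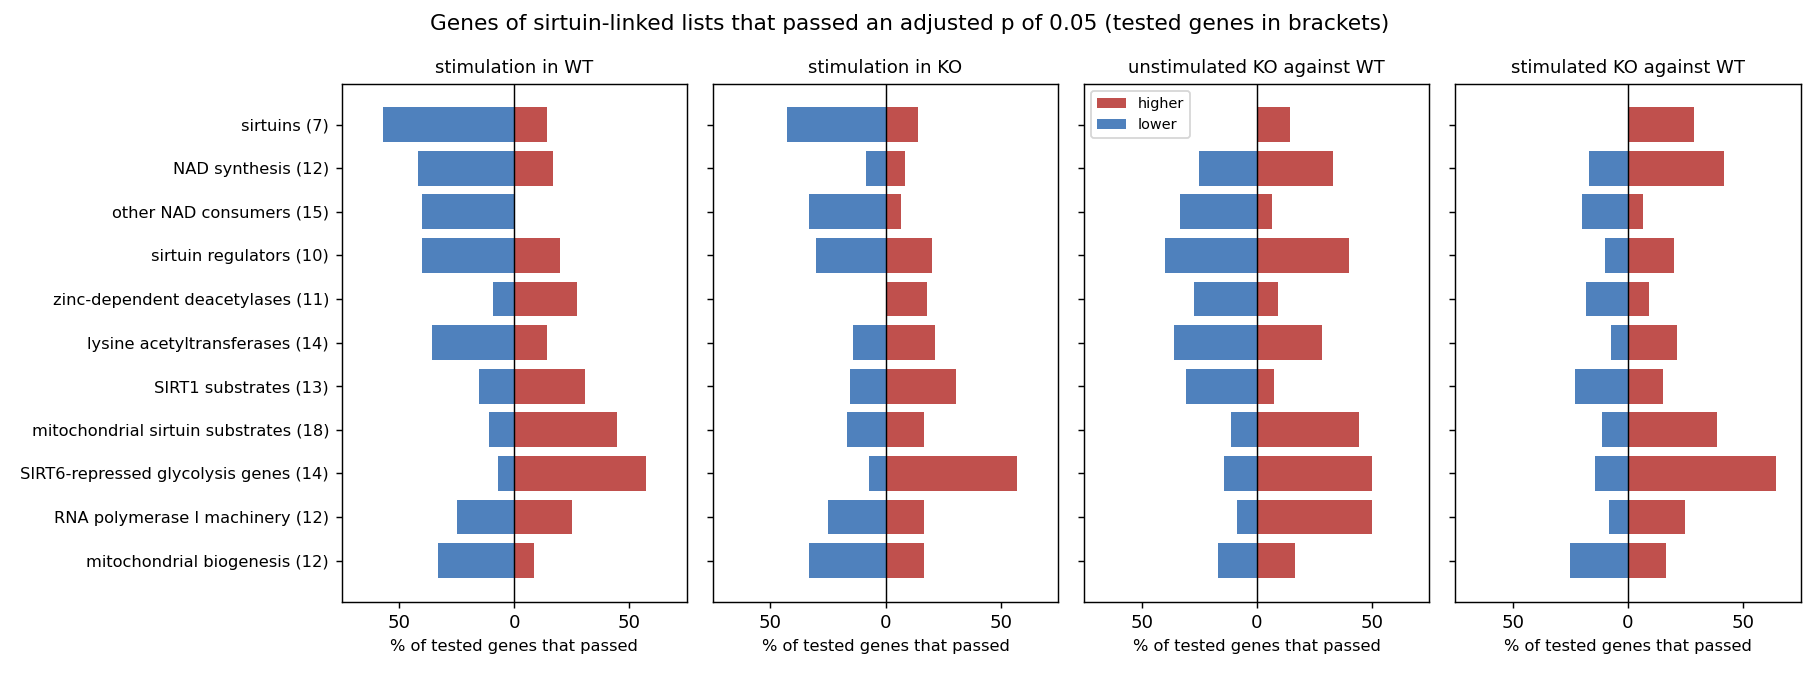
Share of the tested genes of each list (x axis, percent, red to the right for higher and blue to the left for lower) that passed an adjusted p of 0.05, for 11 lists (y axis, tested genes in brackets) in 4 comparisons. Among all genes tested, 22.4% rose and 22.9% fell on stimulation in WT. The sirtuins show 4 of 7 lower and 1 of 7 higher in that panel, and no lower call in either KO comparison.

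A list of 5 genes held the 4 that the study followed under SIRT6 inhibition and *Ptprc* (CD45). In the present libraries 4 of 5 were higher and 1 lower in unstimulated KO against WT, and the same counts held in stimulated cells. The lower gene in both was *Ptprc*, at -0.26 and -0.23, and the 4 higher ones were those the study followed. Whether *Syngr1*, *Exoc3l*, *Cadm1* and *Vcl* were chosen from these libraries was not given in the sources used here, so their direction is not taken as independent evidence. *Syngr1*, a synaptogyrin of secretory vesicles, was higher by 3.38 (SE 0.101, adjusted p = 8.93e-31) and 3.95 (SE 0.112, adjusted p = 8.92e-32), and *Exoc3l* by 1.13 (SE 0.137, adjusted p = 1.77e-09) and 1.19 (SE 0.145, adjusted p = 2.30e-09). In HZ the same pair was higher too, *Syngr1* by 3.27 and 2.65 and *Exoc3l* by 1.26 and 0.77. *Sirt6* read -0.05 and 0.02 in the same KO comparisons and -0.01 and 0.23 in the HZ ones, none of which passed. The paper proposes that ELK4 recruits SIRT6 protein, which a transcript level does not measure.

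Each sirtuin was set against 9857 other genes that averaged 100 counts or more a library, by Pearson's r of log2 CPM over the 12 libraries. The 2 states separate the libraries, all points share the same scaling factors, and the values are a description. The nearest genes were *Igf1r* (0.976), *Pip5k1c* (0.976), *Bri3* (0.971) for *Sirt1*, and *Rxrb* (0.979), *Rab37* (0.972), *Wipi1* (0.972) for *Sirt3*. For *Sirt2* they were *Marchf7* (0.939), *Ccnt2* (0.918), *Fbxl21* (0.917). For *Sirt7* they were *1700017B05Rik* (0.953), *Bcdin3d* (0.953), *Glt8d1* (0.950), and for *Sirt4* *Uckl1* (0.974), *Clcn6* (0.951), *Gpatch2* (0.926). For *Sirt6* and *Sirt5* the values were lower, with *Trmt44* (0.897), *Bms1* (0.893), *Eri2* (0.889) for *Sirt6* and *Zfp770* (0.879), *Zfp830* (0.865), *Cfap97* (0.858) for *Sirt5*. Within the 6 unstimulated and the 6 stimulated libraries, *Igf1r*, the receptor of insulin-like growth factor 1, had an r of 0.972 and 0.931 with *Sirt1*, and *Rxrb*, a retinoid X receptor, one of 0.956 and 0.959 with *Sirt3*. For *Sirt6* the values of *Eri2* were 0.251 and 0.836, a much looser likeness in unstimulated cells. Within the family, r of *Sirt1* and *Sirt3* was 0.803 in the unstimulated and 0.745 in the stimulated libraries, and that of *Sirt2* and *Sirt7* was -0.286 and 0.979. The last value was the highest of all family pairs in stimulated libraries, and both genes were lowest in stimulated HZ. Other pairs were of mixed sign, such as *Sirt2* and *Sirt6* at 0.344 and -0.565.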

How the data were processed

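Total RNA of BMMCs was sequenced on an Illumina HiSeq by the authors, who deposited raw read counts per gene and an FPKM value for each count, both without pooling. The submitters' processing notes name fastp, HISAT2, HTSeq and GRCm39, with no version, and strand was not given in the sources used here. In the deposited FPKM table, count over FPKM varied only with gene length and library total. Members and lists were chosen with earlier results of these data known.

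Counts were fitted in R 4.3.3 with edgeR 4.0.16: filterByExpr (12208 of 16234 genes), TMM factors, a quasi-likelihood model with 6 group means and 6 residual degrees of freedom. Adjusted p was Benjamini-Hochberg over all genes tested, with 0.05 as threshold. Genes named besides the sirtuins were, for each list and direction in stimulation (WT, KO) and KO against WT (each state), among the 2 with the largest change that passed and averaged 100 counts or more in whichever group was higher. Nearest genes were the 3 with the highest r, and HZ values and overlapping genes were added after values were seen. The fit was tested on simulated data. Alternatives used DESeq2, other scalings and filters, limma on log2(FPKM + 1) or log2(FPKM + 0.1), replicate blocks and each library left out. Replicates of a group differed by more than sampling noise, and each was counted once. That difference cannot say whether they came from separate animals or cultures. The common coefficient of variation between replicates in the fit was 4.01%.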

Additional observations from a re-analysis of the deposited data

Results flagged for a closer look

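The response to stimulation differed between HZ and WT for 2 sirtuins, by the interaction term of the edgeR model with Benjamini-Hochberg adjustment over all genes tested. For *Sirt2* the log2 fold change was lower in HZ than in WT by a difference of -0.46 (SE 0.0588, adjusted p = 1.05e-08). *Sirt2* rose in both WT and KO and fell in HZ with TMM factors, all 3 values were negative on library totals, and there the difference was -0.38 (adjusted p = 7.17e-07). For *Sirt1* the difference was -0.34 (SE 0.119, adjusted p = 0.0178), and on library totals -0.27 (adjusted p = 0.0686). Unstimulated HZ libraries were the highest of the 12 for *Sirt1* and the highest of the unstimulated ones for *Sirt2*. The 12 proliferation markers summed to 718 to 719.7 CPM in the same libraries, the lowest group, and to 1713 to 1729 CPM in stimulated HZ. The 10 mast cell markers moved the same way as both sirtuins, at 55807 to 57243 CPM in unstimulated and 48907 to 49658 CPM in stimulated HZ, and in the same interaction gave 0 of 10 higher and 9 lower, median -0.31. The part of either list in these differences was not tested. Of all genes tested, 38.5% passed this interaction.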

How the results depend on the processing

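The counts of sirtuins that passed kept within 1.5 times their values under the alternatives run, with the exceptions below, but on stimulation their directions and members did not. With library totals the calls were 6 lower and 0 higher in WT (4 of the 5 calls shared), 7 lower and 0 higher in HZ (5 of 5 shared) and 6 lower and 0 higher in KO (3 of 4 shared), against 4 lower and 1 higher, 5 lower and 0 higher and 3 lower and 1 higher with TMM factors. The 3 limma fits gave 7 lower in WT, 6 or 7 lower in HZ and 6 lower in KO, with 0 higher. Except for the study's fold thresholds, the shares of all genes that passed under the alternatives were not computed. The sirtuin counts under them therefore have no background to be read against. With the study's fold thresholds 0 sirtuins passed in each comparison. At an adjusted p below 0.01, stimulation in KO fell from 4 to 2, unstimulated KO against WT from 1 to 0, stimulated KO against WT from 2 to 1, stimulated KO against HZ from 2 to 1 and the HZ response from 2 to 1. DESeq2 gave 2 for stimulation in KO and 1 for stimulated KO against HZ. Library totals, limma on log2(FPKM + 0.1) and limma on log2(FPKM + 1) without a filter gave 1 for stimulated KO against HZ and 1 for the HZ response, and limma on log2(FPKM + 1) gave 1 for the former. Leaving out each library in turn gave 2 to 3 for stimulation in KO, 0 to 1 for unstimulated KO against WT, 1 to 2 for stimulated KO against WT, 1 to 2 for stimulated HZ against WT, 1 to 1 for stimulated KO against HZ and 1 to 2 for the HZ response.

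The direction of *Sirt2* on stimulation reversed wherever library totals set the scale. In WT it was -0.0818 on totals and -0.0814, -0.0798 and -0.0798 in the 3 limma fits, and in KO -0.0385, -0.0384, -0.0377 and -0.0377. Library totals shift all genes of a library by one amount. Upper-quartile factors, chosen after seeing the data, made *Sirt1* pass on stimulation in WT (adjusted p = 0.0345).

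Values that had not passed crossed 0 when single libraries were left out. On stimulation in HZ the range was -0.33 to 0.00377 for *Sirt6*. In unstimulated KO against WT the range was -0.00243 to 0.24 for *Sirt5*, -0.14 to 0.0595 for *Sirt6* and -0.0227 to 0.13 for *Sirt7*. In unstimulated HZ against WT the range was -0.26 to 0.0837 for *Sirt4*, -0.0790 to 0.15 for *Sirt5*, -0.10 to 0.0925 for *Sirt6* and -0.0747 to 0.0888 for *Sirt7*. In unstimulated KO against HZ the range was -0.24 to 0.10 for *Sirt4*, -0.0331 to 0.20 for *Sirt5*, -0.0746 to 0.00492 for *Sirt6* and -0.0261 to 0.11 for *Sirt7*. In stimulated KO against WT the range was -0.0303 to 0.00658 for *Sirt2*, -0.11 to 0.00940 for *Sirt5* and -0.16 to 0.19 for *Sirt6*. In stimulated HZ against WT the range was -0.0337 to 0.0732 for *Sirt4* and -0.0764 to 0.11 for *Sirt5*. In stimulated KO against HZ the range was -0.16 to 0.0242 for *Sirt5*. In the KO response the range was -0.0819 to 0.0924 for *Sirt1*, -0.0233 to 0.0473 for *Sirt2*, -0.11 to 0.24 for *Sirt6* and -0.12 to 0.0366 for *Sirt7*. In the HZ response the range was -0.0652 to 0.26 for *Sirt4* and -0.14 to 0.0974 for *Sirt5*. Other settings also turned values near 0. On library totals and in the 3 limma fits, *Sirt5* read -0.0196, -0.0167, -0.0137 and -0.0137 and *Sirt7* -0.0422, -0.0412, -0.0403 and -0.0403 in unstimulated HZ against WT, and *Sirt5* 0.0633, 0.0589, 0.0455 and 0.0455 in the HZ response. With DESeq2, its size factors in edgeR and the compared groups alone, *Sirt4* read -0.00450, -0.00473 and -2.17e-05 and *Sirt5* -0.00482, -0.00517 and -6.01e-04 in stimulated HZ against WT.

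The correlation of same-numbered deviations between states was -0.023 in WT, 0.063 in HZ and -0.021 in KO. These values show no clear shared deviation, and cannot say whether same-numbered libraries came from one animal or culture. With the replicate block 5 sirtuins passed on stimulation in WT, 5 in HZ and 4 in KO, and the counts in all 11 comparisons equalled those without it. A group left with 1 library was assumed to vary like the others. With 2 libraries a group, *Sirt4* at 123 to 248 counts had standard errors near 0.184 on the log2 scale, against 0.0415 for *Sirt2*.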
